A study of Mus musculus with 6 samples.

Results

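The cytosolic ribosomal protein genes encode the protein components of the ribosome that translates nuclear-encoded messenger RNA. They were taken as the protein-coding gene IDs whose symbols follow the Rpl and Rps naming pattern, together with Rplp0, Rplp1, Rplp2 and Rpsa. This gave 83 of the 55487 gene IDs in the table, 51 of the large subunit and 32 of the small subunit. The name pattern used no measured value. It leaves out some genes of the same kind, among them Fau, Rack1 and Rpl36al, which are described separately.

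RNA was measured in bulk in marginal zone (MZ) B cells, which sit beside the blood sinuses of the spleen and answer quickly to antigens carried in the blood. B cells were enriched by negative selection and the MZ cells then obtained by flow sorting, from mice aged 14 weeks. The WT group held 3 libraries from C57BL/6 mice and the CD55KO group held 3 libraries from mice that lack CD55, a membrane protein that restrains complement on the cell that carries it. The sources used here give neither the strain behind the knockout nor the part of Cd55 deleted. They also do not say that each library came from its own mouse, so the p-values cover no more than the spread among these 6 libraries, and that spread may be technical.

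Ribosomal proteins are made in nearly equal numbers, join ribosomal RNA in the nucleolus and leave the nucleus in the large and small subunits. Their messages are among the most abundant in a lymphocyte. Most begin with a C followed by a run of C and T, called a 5′ terminal oligopyrimidine (TOP) tract, through which the mTORC1 pathway and the RNA-binding protein Larp1 control their translation and stability. B cells make more ribosomes once they are activated and start to grow.

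Total counts ran from 20056111 (WT 1) to 30784090 (WT 2). Levels are given as CPM, counts relative to the library total after TMM scaling (trimmed mean of M-values). Cd55 stood at 7.53 ± 1.36 CPM in CD55KO and at 118 ± 7.69 CPM in WT (SD, n = 3), and its log2 fold change was -3.96 (edgeR's quasi-likelihood test, adjusted p = 3.9e-12). All 12 MZ and all 7 general B cell markers examined were expressed. WT 1 stood apart from the other libraries by a summed level of 20 cell cycle genes of 1921 CPM against 1400 to 1595 CPM, and by 4388 CPM of 7 erythroid genes against 36.2 to 2002 CPM. The sums over 10 macrophage genes were 22.8 to 28.0 CPM in CD55KO and 16.6 to 25.1 CPM in WT, those over 8 T cell genes were 41.9 to 49.2 and 39.5 to 44.4 CPM, and the neutrophil genes Ly6g, Camp, Retnlg and Elane were at 0. Among the germinal centre genes Gcsam fell, with a log2 fold change of -1.81 (adjusted p = 0.0343, edgeR, not called by limma-voom), and among the plasma cell genes Xbp1 fell, with -0.59 (adjusted p = 0.00471, edgeR). The median log2 fold change of the 8 germinal centre genes was -1.65. Their summed level was 91.2, 31.2 and 75.2 CPM in WT 1, 2 and 3 and 22.8 to 34.2 CPM in CD55KO, so it was high in WT 1 and WT 3 only. In the marker lists with 0 called genes, those of smallest p were Ms4a1 and Pax5 (general B cell), Notch2 and Dtx1 (MZ), Mcm5 and Mcm2 (cell cycle), Cd68 and Adgre1 (macrophage), Slc4a1 (erythroid) and Cd3d and Trac (T cell). Their log2 fold changes ran from -0.65 to 1.08, with adjusted p from 0.209 to 0.973 (edgeR).

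The start of a ribosomal protein message is the sequence through which its translation is controlled, and it is shown here for genes described below. Of the 83 genes, 63 were matched by symbol in a RefSeq table of promoter windows (mouse, GRCm38.p6). The windows run 5′ to 3′ on the gene's strand from 10 bases before to 20 bases from the annotated start, so the annotated start is the first letter after those 10. Capitals mark a run made of a C followed by at least 4 letters that are each C or T, searched on the gene's strand only. Runs could begin up to 10 bases before or after the annotated start, and the one nearest to it was taken. Any other run is left in lower case. In the first 5 the marked run begins at the annotated start itself. In each of these the letter just before is also C or T, so the stretch of C and T is longer than marked.
Rps6 (chr4:86857348-86857377, minus strand): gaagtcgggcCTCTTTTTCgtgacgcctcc
Rpl38 (chr11:114668570-114668599, plus strand): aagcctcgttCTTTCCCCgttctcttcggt
Rplp2 (chr7:141447641-141447670, plus strand): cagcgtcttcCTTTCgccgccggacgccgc
Rps27 (chr3:90213629-90213658, minus strand): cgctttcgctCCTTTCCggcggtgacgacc
Rps21 (chr2:180257369-180257398, plus strand): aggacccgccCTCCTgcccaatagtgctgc
Rps27l (chr9:66946076-66946105, plus strand): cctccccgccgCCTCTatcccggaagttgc
Rpl22l1 (chr3:28805498-28805527, plus strand): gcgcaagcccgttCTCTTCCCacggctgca
Rpl22 (chr4:152324426-152324455, plus strand): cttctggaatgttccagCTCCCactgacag
Rps28 (chr17:33824543-33824572, minus strand): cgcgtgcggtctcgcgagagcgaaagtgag
Rpl7l1 (chr17:46782637-46782666, minus strand): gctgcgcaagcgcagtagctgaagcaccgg

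In Rps27l, Rpl22l1 and Rpl22 the run began at transcribed base 2, 4 and 8. Rps28 and Rpl7l1 held no such run within these 20 bases, which says only that these letters are absent from this window. Where the table listed 2 starts for a gene, the start with the run was taken. For Rpl22 the start taken lies before the gene as placed in GENCODE M21 (chr4:152325742-152334071). Which start its messages use was not tested. Over all 63 matched genes such a run could be read from the annotated start in 13 (20.6%), and in 813 of all 27025 genes of the table (3.0%). Starts with C or T just before them were not excluded from these counts. A run beginning within 10 bases of the start, before or after it, was found in 39 of 63 (61.9%), and in 9297 of 27025 (34.4%). Annotated starts can miss the base that is used most, so these shares describe the annotation.

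The 83 genes are scattered over 19 chromosomes. On the chromosome of Cd55 there were 3 of them, the nearest at a distance of 57.7 Mb. Most share sequence with processed pseudogenes, copies of the message that have been inserted back into the genome. In the GENCODE M21 transcripts (GRCm38), 80 of 83 had at least 1 stretch of 50 bases in common with a pseudogene, and in the median member 60.0% of all 50-base stretches also occurred in another gene, pseudogene or not. Counts of such genes are uncertain, because reads that fit a gene and its copy equally well may be divided between them, and the library kit does not mark strand. The rows of these pseudogenes held a median of 4.57% of the counts of a member and its copies together. For 5 members they held more than 50%: 75.8% for Rpl12, 73.2% for Rpl5, 55.9% for Rpl27a, 54.98% for Rpl28 and 53.1% for Rpl17.

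Of the 83 genes, 80 had enough counts for the comparison, 48 of the large and all 32 of the small subunit. The 3 that did not pass the count filter were paralogues known from other tissues. Rpl3l, the form of heart and skeletal muscle, and Rpl10l, the form of the testis, had 0 counts in all 6 libraries. Rpl39l, also a form of the testis, had 4, 3 and 4 counts in CD55KO 1, 2 and 3 and 2, 13 and 0 counts in WT 1, 2 and 3. Their broadly expressed partners Rpl3, Rpl10 and Rpl39 were at 3883 ± 212, 609 ± 34.7 and 456 ± 31.9 CPM in WT (SD, n = 3).

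Levels of different genes were compared as CPM per kb of annotated transcript. In WT the median of the 80 genes was 1540, with a median of 1382 for the large and 1817 for the small subunit. The order ran from 10380 ± 753 (SD, n = 3) for Rpl13 down to 100.3 ± 6.90 for Rps27l. Behind Rpl13 in the large subunit came Rpl32 with 8451 ± 750 and Rpl41, which encodes the shortest ribosomal protein, with 6709 ± 835 CPM per kb. In the small subunit Rps19, mutated in Diamond-Blackfan anaemia, led with 6640 ± 751, followed by Rps14 with 5613 ± 505 and Rps18 with 5395 ± 541. The means of Rps14 and Rps18 differed by less than their SD, as did those of Rpl41 and Rps19. These genes were measured in the same libraries, so the SD is not that of their difference, which was not tested.

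At the low end stood Rpl5 with 117 ± 7.04, Rpl12 with 142 ± 9.93 and Rpl7l1 with 165 ± 4.22 CPM per kb. The first 2 are the genes with the largest share of counts on their pseudogenes, and Rpl5 has an annotated transcript of 2045 bases, so both levels are uncertain. Rpl7l1, a paralogue of Rpl7 that acts in ribosome assembly, had 0.06% of the pooled counts on its pseudogenes. In the small subunit the lowest after Rps27l were Rps20 with 304 ± 13.6, over an annotated transcript of 3706 bases, and Rps12 with 767 ± 71.4 CPM per kb. The levels of CD55KO lay close to those of WT over the whole range.

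**Figure D1:**
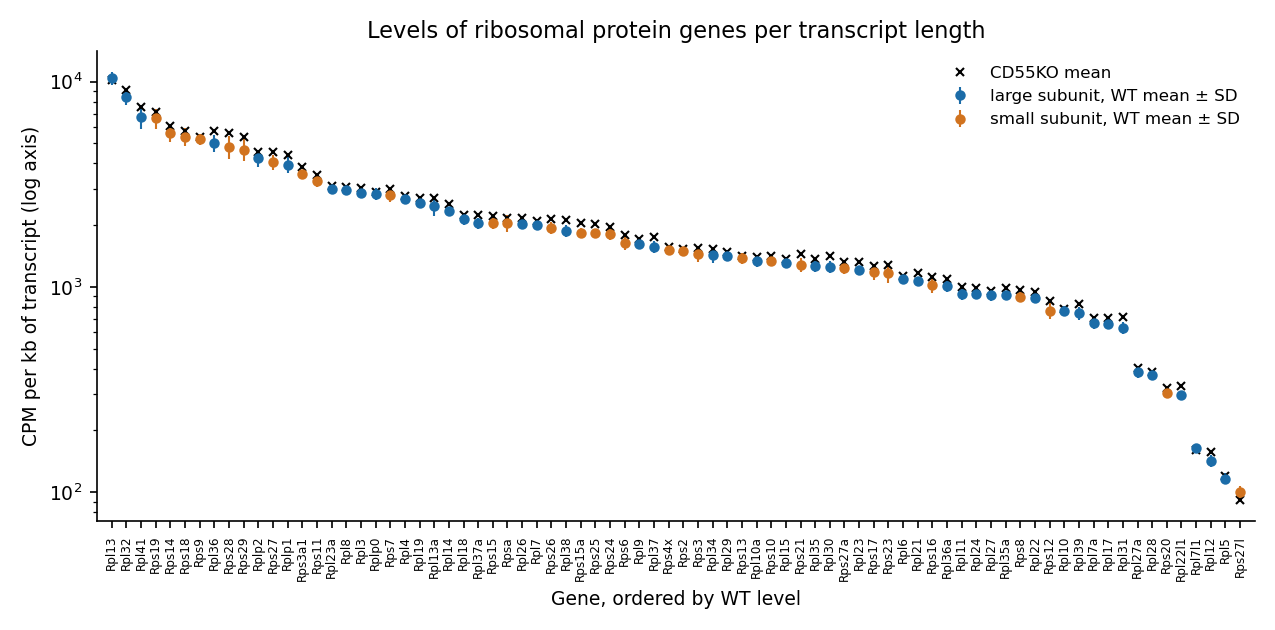
Level of the tested genes reported here as CPM per kb of annotated transcript (log axis), ordered by WT level, with WT means ± SD over 3 libraries as dots coloured by subunit and CD55KO means as crosses. The order spans 10380 for Rpl13 to 100.3 for Rps27l, and the crosses follow the dots.

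The ribosomal protein genes did not differ between the genotypes by the test of any single gene. With edgeR's quasi-likelihood test and an adjusted p under 0.05 as the threshold, 0 of the 48 large subunit and 0 of the 32 small subunit genes were called, where 55 of all 13794 tested genes (0.399%) were, 19 of them higher in CD55KO (0.138%) and 36 lower (0.261%). The smallest adjusted p among the 80 was 0.681, for Rps28. An unadjusted p under 0.05 was reached by 0 of the 80 and by 8.6% of all genes, and DESeq2 and limma-voom also called 0 of them. In 0 of the 80 were all 3 CD55KO libraries above or all 3 below the WT libraries, against 7.24% and 6.84% of all genes.

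The fitted differences were small and mostly of one sign. Fold changes on the log2 scale, CD55KO against WT, were above 0 in 46 of 48 large and 31 of 32 small subunit genes, together 77 of 80 (96.2%), compared with 50.4% of all genes. Their median was 0.10 for the large and 0.11 for the small subunit, and 0.001 over all tested genes. Single values ran from -0.13 (Rps27l) to 0.22 (Rps28). The 95% intervals of the single genes reached at most to a 1.51-fold higher level (Rps21) and a 0.80-fold level (Rps27l) in CD55KO. In bulk RNA, fewer cells of a type and less RNA per cell cannot be told apart.

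**Figure D2:**
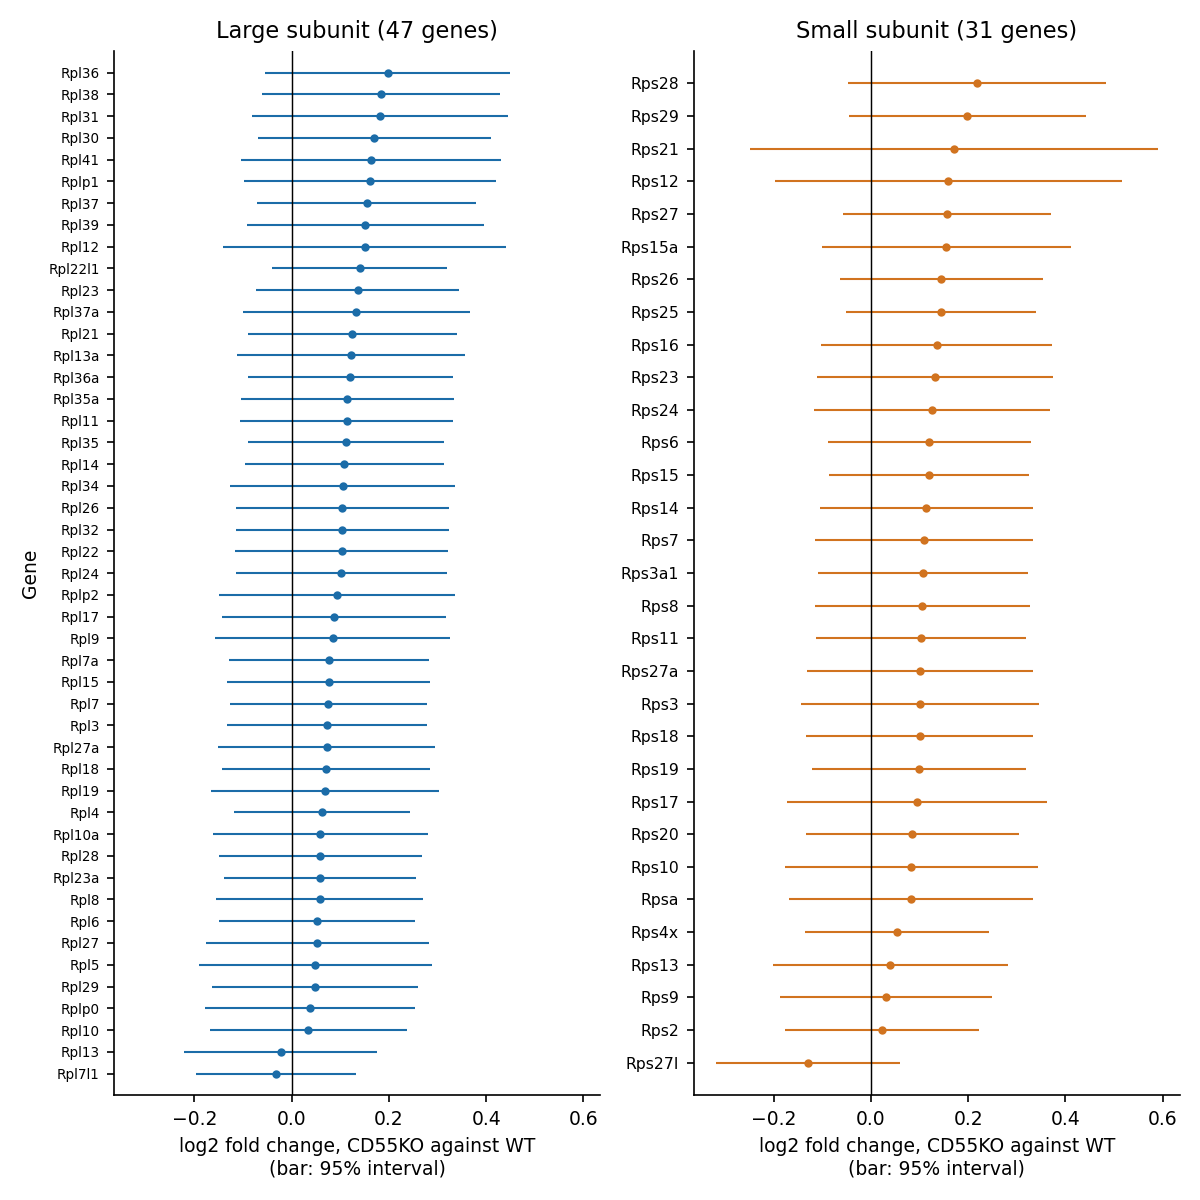
Log2 fold change of CD55KO against WT (dots) with its 95% interval (bars) for the large and small subunit genes reported here, ordered by size. All intervals shown include 0, and all dots but those of Rpl13, Rpl7l1 and Rps27l lie to the right of it.

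The share of counts on these genes varied more among the CD55KO libraries than between the means of the genotypes. The 83 genes together took 11.9%, 14.2% and 14.6% of all counts in CD55KO 1, 2 and 3 and 12.7%, 12.5% and 13.2% in WT 1, 2 and 3. CD55KO 1 was thus the lowest of all 6 libraries, and CD55KO 2 and CD55KO 3 were the 2 highest. The means were 13.6 ± 1.46% in CD55KO and 12.8 ± 0.38% in WT (SD, n = 3), a ratio of 1.06, with the WT libraries inside the CD55KO range.

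Both subunits followed this order. The large subunit took 6.97%, 8.31% and 8.38% of counts in CD55KO 1, 2 and 3 and 7.45%, 7.31% and 7.73% in WT 1, 2 and 3. For the small subunit the shares were 4.92%, 5.94% and 6.18% in the CD55KO and 5.20%, 5.22% and 5.52% in the WT libraries. CD55KO exceeded WT by 0.39 percentage points for the large and 0.37 for the small subunit, differences smaller than the SD of the CD55KO libraries (0.797 and 0.669).

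Leaving out a CD55KO library moved these differences by more than 1.5 times. Without CD55KO 1 they were 0.85 and 0.75 percentage points, without CD55KO 2 they were 0.18 and 0.24, and without CD55KO 3 they were 0.14 and 0.12. Without WT 1 they were 0.37 and 0.31. The pseudogenes that share sequence with the members took 1.53%, 1.79% and 1.79% of counts in CD55KO 1, 2 and 3 and 1.69%, 1.57% and 1.59% in WT 1, 2 and 3, so CD55KO 1 was the lowest there too.

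The balance of the subunits was similar in all 6 libraries. Counts on large subunit genes divided by those on small subunit genes gave 1.42, 1.40 and 1.36 in CD55KO 1, 2 and 3 and 1.43, 1.40 and 1.40 in WT 1, 2 and 3. The means of 1.39 ± 0.03 and 1.41 ± 0.02 (SD, n = 3) differed by less than the SD of CD55KO. CD55KO 3, with the largest share of ribosomal protein counts, had the lowest ratio.

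**Figure D3:**
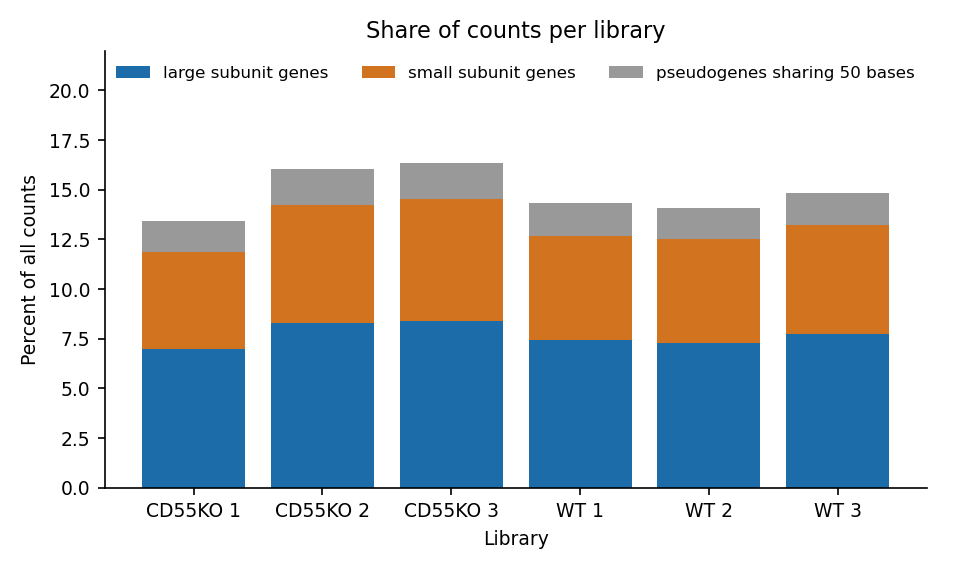
Percent of all counts of a library on large subunit genes, small subunit genes and the pseudogenes that share a stretch of 50 bases with them, stacked per library. CD55KO 1 has the smallest stack and CD55KO 3 the largest, with the 3 WT libraries between them.

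Within CD55KO, the genes moved together from library to library. For each gene the log2 CPM of a library was set against the gene's mean over the 6 libraries. The median of the 80 differences was -0.20, 0.13 and 0.21 in CD55KO 1, 2 and 3 and -0.09, -0.09 and 0.05 in WT 1, 2 and 3. All 80 genes were below their mean in CD55KO 1 and above it in both CD55KO 2 and CD55KO 3, a pattern met by 16.4% of all tested genes.

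CD55KO 1 was the lowest of the 6 libraries for 69 of the 80 genes (all genes, 19.4%). CD55KO 3 was the highest for 67 (all genes, 16.1%), and both held for 62 (all genes, 4.25%). The CD55KO libraries spanned a wider range than the WT libraries in 79 of the 80 genes, and in 50.3% of all genes. These genes share libraries and scaling and are not independent of each other.

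Other abundant genes spread less between the CD55KO libraries. The median SD of log2 CPM over the members was 0.22 in CD55KO and 0.09 in WT. In 1480 other genes with a mean of at least 100 CPM it was 0.08 in both genotypes, and over all tested genes 0.15 in both. The median differences of those abundant genes from their means stayed between -0.03 and 0.04 in every library.

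Over all 6 libraries, neither the erythroid sum nor the mitochondrial share followed the order of the ribosomal protein share. The erythroid sum was 2002, 1602 and 36.2 CPM in CD55KO 1, 2 and 3 and 4388, 359 and 106 CPM in WT 1, 2 and 3. Within CD55KO, but not within WT, it ran in the reverse order of the ribosomal protein share. The mitochondrial genome took 2.93%, 2.07% and 2.64% of counts in CD55KO 1, 2 and 3 and 2.03%, 2.65% and 2.29% in WT 1, 2 and 3. CD55KO 1 thus held the largest mitochondrial share and CD55KO 3 the smallest erythroid sum. The summed level of the 12 MZ markers was lowest in CD55KO 1 and highest in CD55KO 3, as for the ribosomal protein share. It was 5377, 5676 and 5909 CPM in CD55KO 1, 2 and 3. In WT 1, 2 and 3 it was 5399, 5443 and 5850 CPM. For the 7 general B cell markers the sum was lowest in WT 1 (13830 CPM) and highest in WT 3 (16020 CPM). The 6 follicular B cell markers, Cd55 among them, summed to 1642, 1592 and 1564 CPM in CD55KO 1, 2 and 3. That order within CD55KO is the reverse of the ribosomal protein share. In WT 1, 2 and 3 their sum was 1544, 1695 and 1746 CPM. The part of these measures in the ribosomal protein levels was not tested.

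**Figure D4:**
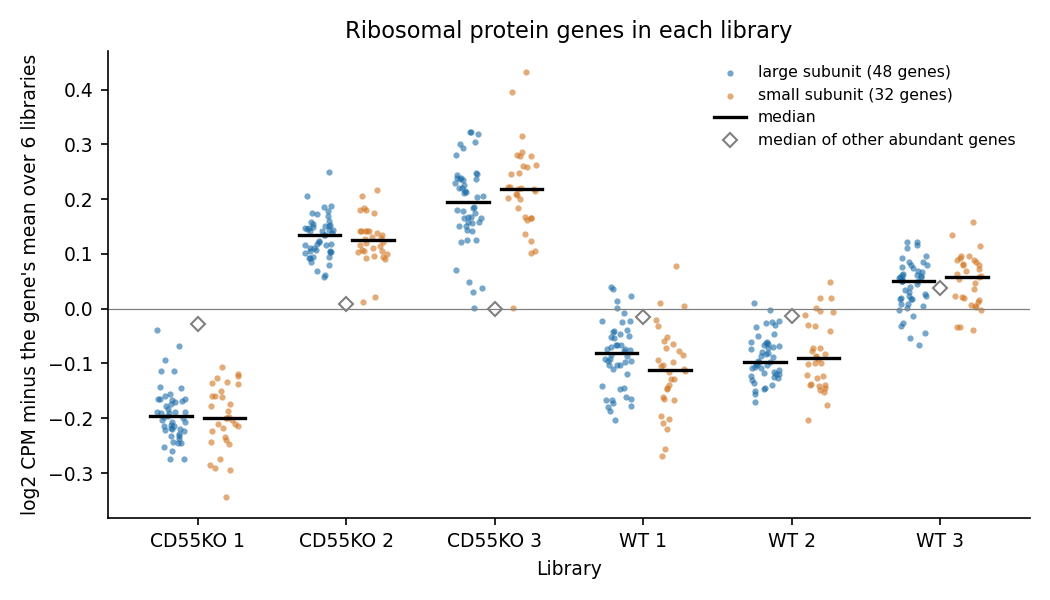
Log2 CPM of each gene in a library minus its mean over the 6 libraries, with large and small subunit genes as dots, their medians as bars and the median of 1480 other abundant genes as diamonds. All 80 dots lie below 0 in CD55KO 1 and above 0 in CD55KO 2 and CD55KO 3.

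Between the extreme CD55KO libraries the median gene differed by 0.40 on the log2 scale (CD55KO 3 minus CD55KO 1), a 1.32-fold difference. In the large subunit the median was 0.39 with a range from 0.08 to 0.58, and in the small subunit 0.41 with a range from 0.21 to 0.78. The widest gap was that of Rps21, which encodes a small protein of the 40S subunit. Its level was 416, 574 and 712 CPM in CD55KO 1, 2 and 3 and 459, 518 and 536 CPM in WT 1, 2 and 3. Rps12 followed, with 324, 425 and 521 CPM in CD55KO 1, 2 and 3 and 341, 410 and 387 CPM in WT 1, 2 and 3. In both genes the CD55KO libraries enclosed the WT libraries from below and above.

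Among the narrowest gaps were those of the large subunit genes Rpl4, named after its values were seen, and Rpl7l1. Rpl4 had 4082, 4480 and 4306 CPM in CD55KO 1, 2 and 3 and 4174, 3888 and 4261 CPM in WT 1, 2 and 3. Its CD55KO libraries differed by 0.08 (CD55KO 3 minus CD55KO 1), and those of Rpl7l1 by 0.11 on the log2 scale.

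Short genes tended to the wider gaps and the higher fold changes. Across the 80 genes, the log2 coding length and the gap between CD55KO 3 and CD55KO 1 had a Pearson r of -0.35 and a Spearman rho of -0.35. With the log2 fold change between the genotypes the values were -0.52 and -0.66. These are descriptions across genes, which share their libraries and are not independent replicates.

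The 27 members with a coding length under 400 bases had a median log2 fold change of 0.15 and a median gap of 0.46. In the 53 longer ones the medians were 0.08 and 0.38. Other protein-coding genes under 400 bases (778 genes) had medians of 0.02 and 0.09, and longer ones (10092 genes) -0.01 and -0.01. Long members thus showed a wider gap than short genes of other kinds. The part of transcript length in these values was not tested.

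**Figure D5:**
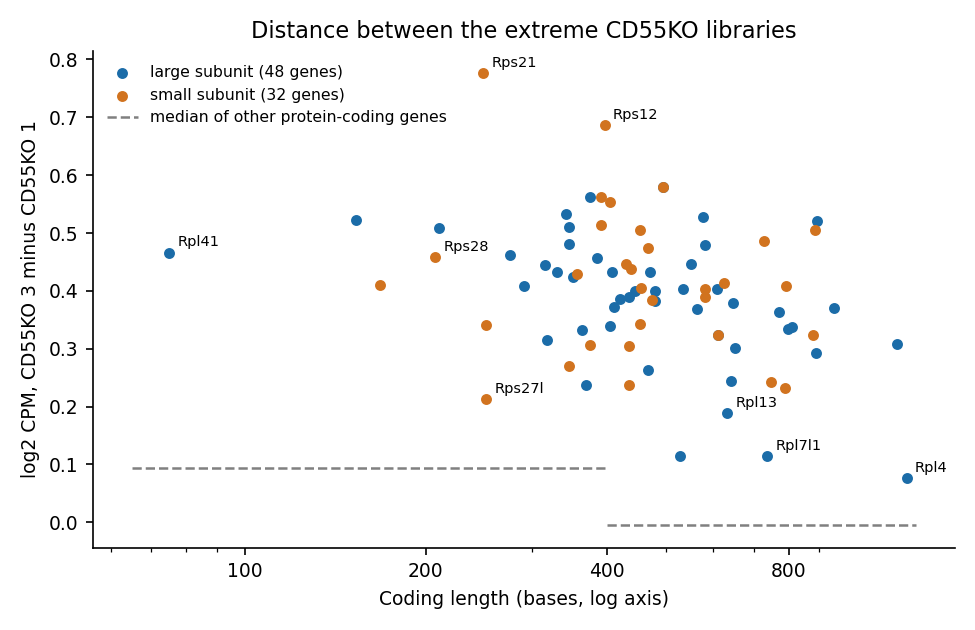
Log2 CPM of CD55KO 3 minus CD55KO 1 for each of the 80 genes against coding length in bases (log axis), with dashed lines at the median of other protein-coding genes under and from 400 bases. All 80 points lie above 0, from 0.08 for Rpl4 to 0.78 for Rps21.

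The large subunit genes with the highest fold changes were Rpl36, Rpl38 and Rpl31. Rpl36 stood at 1767, 2425 and 2405 CPM in CD55KO 1, 2 and 3 and at 1810, 1813 and 2131 CPM in WT 1, 2 and 3, a log2 fold change of 0.20 ± 0.12 (SE) with an adjusted p of 0.705 (edgeR). CD55KO 1 was lower than every WT library, and the other two CD55KO libraries were higher than all of them. Rpl38, which is needed for the translation of certain Hox messages in the embryo, was at 589, 773 and 838 CPM in CD55KO 1, 2 and 3 and at 604, 640 and 692 CPM in WT 1, 2 and 3. Rpl31 was at 275, 367 and 406 CPM in CD55KO 1, 2 and 3 and at 290, 304 and 330 CPM in WT 1, 2 and 3. Their log2 fold changes were 0.18 each (adjusted p = 0.723 and 0.748, edgeR), and CD55KO 1 was the lowest library in both.

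At the other end of the large subunit were Rpl7l1, Rpl13 and Rpl10. Rpl13 had 7178, 8545 and 8183 CPM in CD55KO 1, 2 and 3 and 8017, 7551 and 8718 CPM in WT 1, 2 and 3, a log2 fold change of -0.02 ± 0.09 (SE). Rpl7l1 had 197, 222 and 213 CPM in CD55KO 1, 2 and 3 and 216, 210 and 221 CPM in WT 1, 2 and 3, with -0.03 ± 0.08. Rpl10 encodes a protein that joins the large subunit late and lies near the site of peptide bond formation. Its level was 624 ± 70.6 CPM with the knockout and 609 ± 34.7 CPM without it (SD, n = 3), and 46.9% of the pooled counts lay on its pseudogenes. In these 3 genes too, CD55KO 1 was the lowest of the 6 libraries.

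In the small subunit the highest fold changes were those of Rps28, Rps29 and Rps21. Rps28 stood at 1237, 1626 and 1700 CPM in CD55KO 1, 2 and 3 and at 1163, 1270 and 1489 CPM in WT 1, 2 and 3, a log2 fold change of 0.22 ± 0.12 (SE), with an unadjusted p of 0.0985 and an adjusted p of 0.681 (edgeR). Rps29 stood at 1748, 2204 and 2324 CPM in CD55KO 1, 2 and 3 and at 1624, 1785 and 2059 CPM in WT 1, 2 and 3, with 0.20 ± 0.11. In both, CD55KO 2 and CD55KO 3 lay above all WT libraries and CD55KO 1 lay among them. The fold change of Rps21 was 0.17 ± 0.18.

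Lowest in the small subunit were Rps27l, Rps2 and Rps9. Rps2, a protein at the entry of the mRNA channel, was at 1527 ± 170 CPM in CD55KO and at 1502 ± 67.7 CPM in WT (SD, n = 3). Rps9 was at 4023 ± 554 and 3937 ± 236 CPM. Both differences were a fraction of the SD.

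The acidic stalk of the large subunit, which recruits the elongation factors, is built from Rplp0, Rplp1 and Rplp2. Rplp0 stood at 3353, 4166 and 4334 CPM in CD55KO 1, 2 and 3 and at 3621, 3807 and 4120 CPM in WT 1, 2 and 3. Rplp1 stood at 1753, 2292 and 2537 CPM in CD55KO 1, 2 and 3 and at 1841, 1888 and 2157 CPM in WT 1, 2 and 3. Rplp2 stood at 1554, 1986 and 2168 CPM in CD55KO 1, 2 and 3 and at 1653, 1739 and 1958 CPM in WT 1, 2 and 3. All 3 had their lowest value in CD55KO 1 and their highest values in CD55KO 3 and CD55KO 2. Their log2 fold changes were 0.04 ± 0.10, 0.16 ± 0.12 and 0.09 ± 0.11 (SE), and 0 of the 3 passed the test.

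Rpl5 and Rpl11 form a complex with 5S ribosomal RNA that binds Mdm2 and stabilises p53 when ribosome assembly fails. Rpl11 stood at 701, 878 and 928 CPM in CD55KO 1, 2 and 3 and at 755, 734 and 828 CPM in WT 1, 2 and 3. Rpl5 stood at 199, 255 and 286 CPM in CD55KO 1, 2 and 3 and at 226, 236 and 254 CPM in WT 1, 2 and 3. The log2 fold changes were 0.11 ± 0.10 and 0.05 ± 0.11 (SE). That of Rpl5 became 0.09 when it was pooled with its pseudogenes.

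Of the small subunit, Rps6 is the main substrate of the S6 kinases downstream of mTORC1. It stood at 1381, 1693 and 1634 CPM in CD55KO 1, 2 and 3 and at 1511, 1304 and 1517 CPM in WT 1, 2 and 3. Unlike most members its lowest library was WT 2. Its log2 fold change was 0.12 ± 0.10 (SE, adjusted p = 0.811, edgeR), with 47.0% of the pooled counts on pseudogenes.

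Rps3, a protein at the mRNA entry that also takes part in DNA repair, stood at 2959 ± 498 CPM in CD55KO and at 2759 ± 235 CPM in WT (SD, n = 3). Rpsa, also known as the laminin receptor precursor, stood at 3452 ± 596 and 3261 ± 309 CPM. Rps27a, made as a fusion with ubiquitin, stood at 843 ± 137 and 786 ± 53.4 CPM. Each of the 3 was lowest in CD55KO 1 and highest in CD55KO 3, and their log2 fold changes were 0.10, 0.08 and 0.10.

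Some ribosomal proteins exist as a pair of related genes. The principal transcripts of the 6 pairs compared, Rpl3 with Rpl3l, Rpl7 with Rpl7l1, Rpl10 with Rpl10l, Rpl22 with Rpl22l1, Rpl39 with Rpl39l and Rps27 with Rps27l, had 0 stretches of 50 bases in common. Rpl22, whose loss blocks the development of some lymphocytes, stood at 371, 469 and 509 CPM in CD55KO 1, 2 and 3 and at 419, 425 and 412 CPM in WT 1, 2 and 3. Rpl22l1, which Rpl22 is known to repress, stood at 153, 170 and 193 CPM in CD55KO 1, 2 and 3 and at 152, 156 and 161 CPM in WT 1, 2 and 3. Both were lower in CD55KO 1 than in CD55KO 2 and CD55KO 3, and the WT values lay close together. The log2 fold changes were 0.10 ± 0.10 and 0.14 ± 0.08 (SE), and neither passed the test.

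Rps27 and Rps27l showed fitted changes of opposite sign. Rps27 stood at 1352, 1615 and 1712 CPM in CD55KO 1, 2 and 3 and at 1311, 1353 and 1534 CPM in WT 1, 2 and 3. Rps27l, a gene induced by p53, stood at 41.3, 48.2 and 47.8 CPM in CD55KO 1, 2 and 3 and at 50.4, 46.4 and 53.3 CPM in WT 1, 2 and 3. The log2 fold changes were 0.16 ± 0.10 and -0.13 ± 0.09 (SE, adjusted p = 0.735 and 0.755, edgeR), and the libraries of the 2 genotypes overlapped in both genes. The difference between the 2 genes was not tested.

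Rpl7 stood at 2447 ± 296 CPM in CD55KO and at 2322 ± 44.6 CPM in WT (SD, n = 3), and Rpl3 at 4084 ± 470 and 3883 ± 212 CPM. On the X chromosome, Rps4x was at 1526 ± 135 and 1471 ± 41.6 CPM and Rpl36a at 528 ± 68.0 and 486 ± 31.3 CPM. Rpl39 was at 506 ± 90.6 and 456 ± 31.9 CPM. In all 5 the SD was larger in CD55KO than in WT.

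Genes that the name pattern leaves out were looked at separately. Fau, which encodes a small subunit protein fused to a ubiquitin-like one, stood at 707, 939 and 967 CPM in CD55KO 1, 2 and 3 and at 783, 737 and 845 CPM in WT 1, 2 and 3. Rack1, a scaffold on the head of the small subunit, stood at 1062, 1313 and 1358 CPM in CD55KO 1, 2 and 3 and at 1085, 1194 and 1272 CPM in WT 1, 2 and 3. Rpl36al, a paralogue of Rpl36a, stood at 239, 296 and 302 CPM in CD55KO 1, 2 and 3 and at 273, 263 and 290 CPM in WT 1, 2 and 3. CD55KO 1 was the lowest library for all 3. Their log2 fold changes were 0.14 ± 0.11, 0.07 ± 0.10 and 0.02 ± 0.10 (SE), and 0 of the 3 passed the test (adjusted p = 0.796, 0.914 and 0.986, edgeR).

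Genes of the steps around the ribosome were counted in the same way. Of 19 elongation factors and other genes with TOP messages, 0 were called by edgeR, DESeq2 or limma-voom, with an unadjusted p under 0.05 for 0, 1 and 1 of them and a median log2 fold change of 0.06. Their median differences from the gene's mean were -0.16, 0.07 and 0.11 in CD55KO 1, 2 and 3 and -0.02, -0.05 and -0.01 in WT 1, 2 and 3, in the order of the ribosomal protein genes within CD55KO. The 2 with the smallest p were Hnrnpa1 with 0.19 and Eif3f with 0.16 (adjusted p = 0.589 and 0.709, edgeR).

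In their median differences the next groups did not show that order within CD55KO. Of their genes 0 were called by edgeR, DESeq2 or limma-voom. Their summed levels were still lowest of the 6 libraries in CD55KO 1 in each group. These were 5679 CPM for initiation factors, 6877 for ribosome assembly, 819 for RNA polymerase I and 494 for the chaperones. The 22 initiation factors had 0 genes with an unadjusted p under 0.05 (edgeR), a median log2 fold change of -0.01 and median differences of -0.04, 0.03 and 0.004 in CD55KO 1, 2 and 3. Eif2b4 with -0.11 and Eif2b3 with 0.11 had the smallest p (adjusted p = 0.742 and 0.821, edgeR). The 59 ribosome assembly genes had 2 with an unadjusted p under 0.05, a median of 0.01 and differences of -0.02, 0.06 and -0.02 in CD55KO 1, 2 and 3. The 2 with the smallest p there were Sbds, which acts in the release of the last assembly factor from the large subunit, with 0.18, and Nolc1, a nucleolar protein, with -0.17 (adjusted p = 0.537 and 0.555, edgeR). Among 15 RNA polymerase I genes 1 reached an unadjusted p under 0.05, the factor Ubtf with -0.18 (adjusted p = 0.432, edgeR), followed by Taf1b with 0.19 (adjusted p = 0.639). Their median differences were -0.08, 0.01 and -0.03 in CD55KO 1, 2 and 3. Their sums of 819, 857 and 872 CPM did follow the order of the ribosomal protein genes within CD55KO. The 8 chaperones of single ribosomal proteins had 0 genes with an unadjusted p under 0.05 (edgeR) and a median of -0.04. Their median differences were -0.06, 0.05 and -0.01 in CD55KO 1, 2 and 3. The smallest p were those of Pdcd2 (0.36) and Pdcd2l (0.07, adjusted p = 0.746 and 0.888, edgeR).

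The known regulators of TOP messages and of ribosomal protein genes were counted too. Of 18 tested, 0 were called and 0 had an unadjusted p under 0.05 by edgeR, DESeq2 or limma-voom, with a median log2 fold change of -0.01. The 2 with the smallest p were Larp1 with 0.20 and the translation repressor Eif4ebp1 with 0.19 (adjusted p = 0.592 and 0.660, edgeR). Among 131 tested rows named as ribosomal protein pseudogenes, 0 were called by the 3 tools and 4 had an unadjusted p under 0.05 (edgeR), with a median of 0.08, near that of the members. Rpl30-ps9 with 0.48 and Rps12-ps3 with 0.24 had the smallest p (adjusted p = 0.290 and 0.495, edgeR).

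The ribosomal proteins of mitochondria, a separate set encoded in the nucleus, were measured in the same cells. Of 78 genes 0 were called by the 3 tools and 3 had an unadjusted p under 0.05 (edgeR). The log2 fold change was above 0 in 19 and below 0 in 59, with a median of -0.05, where the cytosolic genes had 77 of 80 above 0. Their median differences from the gene's mean were -0.10, 0.04 and -0.01 in CD55KO 1, 2 and 3 and 0.02, -0.03 and 0.09 in WT 1, 2 and 3, a narrower range within CD55KO than that of the cytosolic genes. CD55KO 1 was still the lowest of the 6 libraries, also by the summed level of these genes. That sum was 3957, 4359 and 4231 CPM in CD55KO 1, 2 and 3 and 4133 to 4489 CPM in WT. Mrps25 with -0.27 and Mrpl38 with -0.25 had the smallest p (adjusted p = 0.410 and 0.454, edgeR). The difference between the 2 sets of genes was not tested.

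Leaving out any 1 library left the count of called members at 0 (edgeR), while the size of the fitted differences changed. Without CD55KO 1 the median log2 fold change was 0.21 for the large and 0.22 for the small subunit, and 66 of 80 members had an unadjusted p under 0.05, compared with 9.3% of all genes, while 0 passed after adjustment (smallest adjusted p = 0.131, edgeR). Without CD55KO 3 the medians were 0.02 and 0.02, and 53 of 80 values were above 0. Without CD55KO 2 they were 0.06 and 0.07, without WT 3 they were 0.14 and 0.16, and without WT 1, the library that stood apart, 0.08 and 0.07. Without WT 2 they were 0.07 and 0.08.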

How the data were processed

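The deposited table gives estimated counts per gene for all 6 libraries, with no scaling. Per the labels, RNA came from an RNeasy micro kit and libraries from a SMARTer Ultra Low kit, in which strand is not marked. DRAGEN, edgeR and limma stand in the submitters' processing notes, with no role. The sources used here give no genome build or annotation. Of the nonzero values of a library, 30.9 to 31.9% were not whole numbers (tolerance 0.005). Of 55774 rows, 287 repeats of a gene ID were dropped, and the estimated counts as deposited by the authors were rounded to whole numbers.

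Tests ran in R 4.3.3 with edgeR 4.0.16 (filterByExpr with a minimum count of 10 and a minimum total of 15, TMM scaling, robust quasi-likelihood test, genotype only), which tested 13794 genes. Adjusted p-values follow Benjamini and Hochberg over all of these genes, with a threshold of 0.05. DESeq2 1.42.0, limma-voom (limma 3.58.1), other scalings and filters, a replicate block and leaving out each library were alternatives. Lengths, positions and shared stretches of 50 bases came from GENCODE M21 by gene ID.

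Named were, per subunit, the 3 highest and 3 lowest fold changes and levels, the paralogue pairs, 10 members of known special roles, Fau and Rack1, and from each other list the called genes or, where there were none, the 2 of smallest p. Results of a few genes are not reported here, and these are left out of plots that name genes. Members and lists were chosen with earlier results of these data known. Replicate numbers were not taken as pairs, since the correlations of same-numbered libraries were 0.08, -0.12 and 0.17.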

Additional observations from a re-analysis of the deposited data

How the results depend on the processing

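The count of 0 called ribosomal protein genes held under every alternative run. In settings that kept all 6 libraries, the median log2 fold change stayed between 0.09 and 0.10 for the large and between 0.10 and 0.11 for the small subunit. Over all genes, 55 were called, against 232 without a count filter and 138 with DESeq2. The other settings with all 6 libraries called 47 to 64, and leaving out 1 library 37 to 53. With the replicate number as a block, 64 genes and 0 members were called, with medians of 0.09 and 0.10 and a smallest adjusted p of 0.55 among members (edgeR). Pooling members with their pseudogenes, chosen after seeing the data, gave medians of 0.10 and 0.11. Leaving out 1 library at a time, the medians ran from 0.02 to 0.21 for the large and from 0.02 to 0.22 for the small subunit, the share differences from 0.14 to 0.85 and from 0.12 to 0.75 percentage points, and the difference in ratio from -0.03 to -0.004.

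Of 222 leave-one-out values of 37 named genes, 21 changed sign, and of 444 values under the other settings 0 did. The leave-one-out log2 fold changes ran from -0.061 to 0.10 for Rps2, from -0.014 to 0.22 for Rplp2, from -0.036 to 0.12 for Rpl10, from -0.006 to 0.23 for Rps3, from -0.075 to 0.016 for Rpl7l1, from -0.012 to 0.22 for Rps27a, from -0.078 to 0.048 for Rpl13, from -0.049 to 0.14 for Rps9, from -0.038 to 0.21 for Rpsa, from -0.074 to 0.18 for Rpl5, from -0.011 to 0.20 for Rps20, from -0.029 to 0.35 for Rps21, from -0.021 to 0.32 for Rps12 and from -0.037 to 0.14 for Rplp0. The cause of these sign changes was not tested. With 3 libraries per genotype, differences of the size of the medians could not be told from 0 for a single gene.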
